A study of Rattus norvegicus with 6 samples.

Results

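The genes described here encode the machinery that carries secretory proteins into the endoplasmic reticulum (ER), attaches their sugar chains, folds them and removes those that fail to fold. They were taken by symbol from a list of 50 genes. Of these, 46 were on the array, among 10411 named genes in all: 19 of 20 for entry, 5 of 6 for glycosylation, 14 of 14 for folding and 8 of 8 for degradation. Srpr was matched through its current symbol, Srpra. Srp54a, Stt3a and the stress sensors Atf6 and Ern1 were not analysed here. A gene was read from its brightest probe set, that is, the one with the highest mean log2 signal over control and treated arrays together.

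The cells were AR42J, a rat line from a tumour of the exocrine (acinar) pancreas, grown from stocks frozen at passage 29. Each of 3 experiments, spread over 5 months, gave 1 control culture and 1 culture with dexamethasone, a synthetic glucocorticoid. Cells were plated for 24 h in 20% serum and then held for 48 h in 5% serum, alone (control, n = 3) or with 100 nM dexamethasone (n = 3). Total RNA of each culture was read on 1 Affymetrix Rat 230A array, so the data hold 1 line at 1 dose and 1 time. Cultures of equal number were taken as pairs; the sources say that the cultures were prepared in pairs but not that equal numbers mark them. The comparison asks what dexamethasone did to the level of each messenger RNA.

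Proteins bound for secretion are led to the ER by the signal recognition particle and its receptor, enter through the Sec61 channel and lose their signal peptide to the signal peptidase. The oligosaccharyltransferase adds sugar chains, and chaperones such as BiP (Hspa5), Grp94 (Hsp90b1), calnexin and calreticulin then fold the chain. Chains that stay misfolded are drawn back out through the Hrd1 complex and handed to the proteasome. Acinar cells, which make digestive enzymes in bulk, are packed with rough ER, and many genes of this system respond to unfolded protein through the sensors Atf6, Ire1 and Perk.

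Sites known to carry that response to unfolded protein were looked for in RefSeq promoters of the rat assembly GRCr8 (250 bases before to 50 after the gene's start, both strands). They are shown because several of the best-known members share them, while the changes of those members differed. The ER stress response element (ERSE) was searched as CCAAT and CCACG with 9 bases between them, and its variant ERSE-II as ATTGG and CCACG with 1 base between them. Of the 46 members, 43 had a promoter in the table. ERSE was found in 6 of these (14.0%), against 21 of 27457 promoters in all (0.0765%), and ERSE-II in 3 (6.98%), against 15 (0.0546%). Among 119 promoters of other ER genes, ERSE was in 2 (1.68%) and ERSE-II in 0. In the windows that follow, 30 bases to each side of the outermost match are shown where the promoter reaches that far, and capitals mark each match. ERSE on the plus strand of the gene starts with CCAAT and on the other strand it reads from CGTGG.

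Hspa5, ERSE, chr3:38452943-38453021, plus strand: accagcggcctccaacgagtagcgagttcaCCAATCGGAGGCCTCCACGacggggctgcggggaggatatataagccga
Hsp90b1, ERSE at 2 places, chr7:23012317-23012499, minus strand: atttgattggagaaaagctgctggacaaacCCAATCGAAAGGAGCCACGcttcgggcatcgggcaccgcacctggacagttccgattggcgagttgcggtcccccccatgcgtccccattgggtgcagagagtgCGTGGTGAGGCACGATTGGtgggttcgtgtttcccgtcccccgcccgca
Dnajc3, ERSE, chr15:102432504-102432582, plus strand: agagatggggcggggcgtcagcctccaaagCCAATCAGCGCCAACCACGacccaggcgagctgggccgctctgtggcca
Canx, ERSE, chr10:35158039-35158107, minus strand: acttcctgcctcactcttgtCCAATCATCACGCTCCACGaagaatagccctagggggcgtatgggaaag
Calr, ERSE, chr19:40213117-40213183, plus strand: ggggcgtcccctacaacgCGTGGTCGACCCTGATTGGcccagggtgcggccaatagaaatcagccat
Creld2, ERSE, chr7:121789209-121789287, plus strand: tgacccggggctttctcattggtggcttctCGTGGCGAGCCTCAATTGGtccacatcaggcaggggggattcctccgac
Herpud1, ERSE-II, chr19:10614791-10614861, minus strand: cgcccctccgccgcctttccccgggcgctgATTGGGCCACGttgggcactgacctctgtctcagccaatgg
Dnajb11, ERSE-II, chr11:91672770-91672840, minus strand: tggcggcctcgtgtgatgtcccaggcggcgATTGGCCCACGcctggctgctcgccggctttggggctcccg
Hyou1, ERSE-II at 2 places, chr8:53602664-53602834, plus strand: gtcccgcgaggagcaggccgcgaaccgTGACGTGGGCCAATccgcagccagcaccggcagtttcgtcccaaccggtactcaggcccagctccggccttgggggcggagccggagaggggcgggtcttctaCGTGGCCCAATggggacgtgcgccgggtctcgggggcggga

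In Hyou1 the capitals of the upstream match also hold TGACGTGG, the unfolded protein response element (UPRE), which overlaps ERSE-II there. UPRE was found in 2 member promoters, those of Hyou1 and Vcp (4.65%, against 5.88% of 119 promoters of other ER genes and 0.637% of all promoters). A glucocorticoid response element, searched as AGAACA and TGTTCT with 3 bases between them, matched none of the 43 and 2 of 27457 in all. Only these exact letters were searched. At 0.00728% of all promoters they are too rare for their absence from 43 to show whether members lack such elements. A match describes letters in this window and was not measured as a site. Of the 6 members with ERSE, 3 rose with dexamethasone and 3 did not pass the test, and their changes ran from -0.03 to 0.71 on the log2 scale. The 37 without it had 16 risers, 1 faller and a median of 0.28, against 0.33 for the 6. Of the 3 with ERSE-II, Herpud1 had one of the largest rises in the system (2.62), while Hyou1 (-0.15) and Dnajb11 (-0.20) did not pass.

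Across the system, 21 of 46 members (45.7%) rose, 1 fell and 24 did not pass, where "passed" means an adjusted p under 0.05 by limma with replicate number as a block and Benjamini-Hochberg adjustment over all 9520 probe sets tested. Of all 7051 genes tested, 38.4% were called: 17.0% higher and 21.4% lower. Of the members, 40 lay above the median change of all genes, and 24 above its upper quartile. The median log2 change, dexamethasone minus control, was 0.31 for the members and -0.04 for all genes. Most changes were modest: 4 members changed at least 2-fold, and 17 of the 21 risers gained between 0.3 and 0.9 on the log2 scale. Each array was set to a like mean, which hides any shift in total RNA, and in bulk RNA fewer cells of a type and less RNA per cell cannot be told apart.

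Scaling changed how many members rose. Quantile normalization called 18 members higher and 2 lower. Centring each array on its 75th percentile called 27 higher and 1 lower, and using the spiked hybridization controls as the scale called 10 higher and 5 lower. Of all genes tested, these settings called 18.2%, 22.4% and 8.84% higher, and 18.7%, 15.8% and 34.5% lower. The share of all called genes that were higher was 44.2% as deposited and 49.3%, 58.6% and 20.4% in these settings, and the median change of all genes was 0.01, 0.08 and -0.29. Relative to that median, the members' median was 0.35 higher as deposited and 0.18 higher with quantile normalization. The other scalings move every gene of an array by the same amount, so they leave that difference as it is by construction. The 10 members called higher in the main fit and in all 18 alternatives were Sec61a1, Sec61b, Sec11c, Ssr4, Srp72, Srpr, Hspa5, Herpud1, Edem1 and Selenos.

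**Figure D1:**
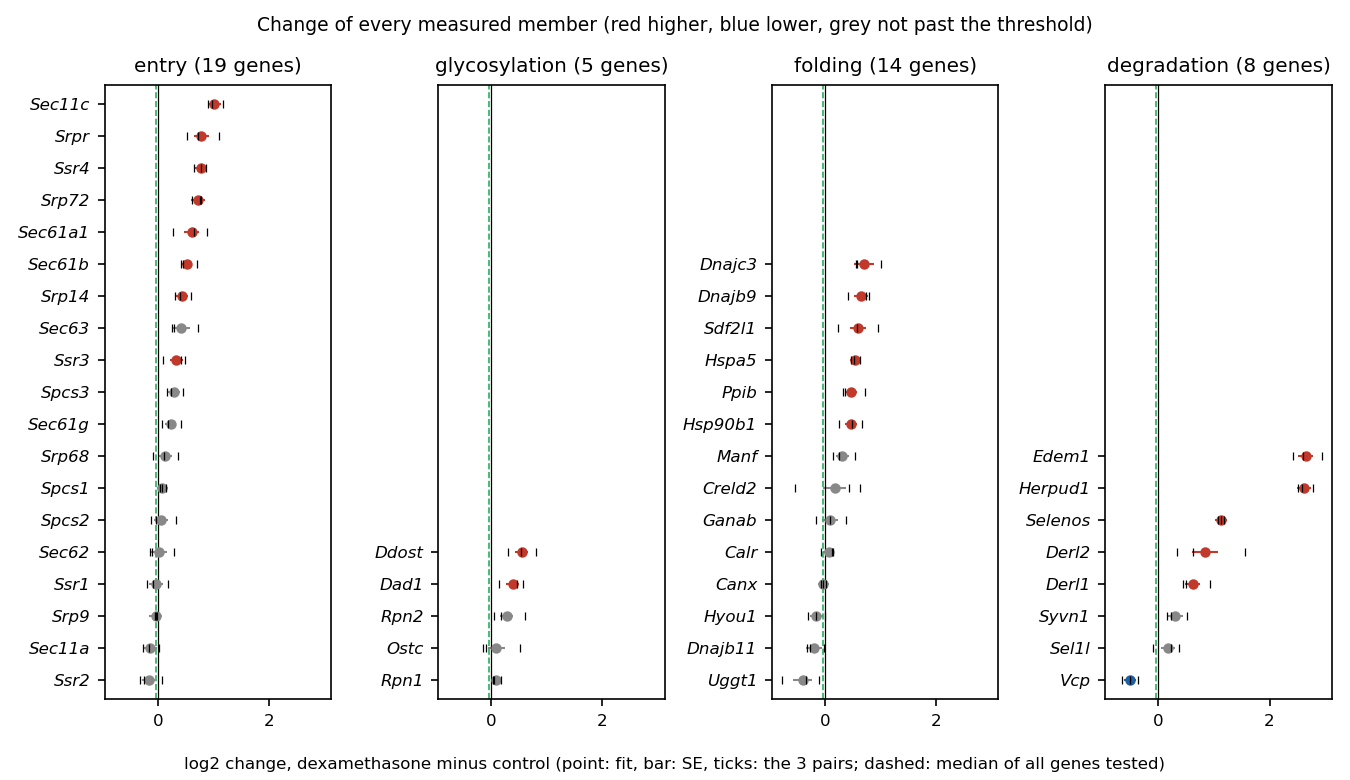
Log2 change (dexamethasone minus control) of all 46 measured members by step; points are the limma fit, bars its SE, ticks the 3 pairs and the dashed line the median of all genes tested (-0.04). Edem1 and Herpud1 stand at 2.65 and 2.62, and Vcp, the only faller, at -0.51.

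Checked against markers, all 16 acinar genes on the array were above background on all 6 arrays. Summed over these genes, the signal ranged from 92910.4 to 113460 on control arrays and from 157715 to 177133 on treated arrays; 11 of the 16 rose and 0 fell. Of 5 duct genes, 2 fell (Krt19 and Krt7) and Muc1 did not pass (0.09 ± 0.22). Car2 and Spp1 were too dim to test. The groups of Krt7 overlapped, at 381 to 657 in controls and 257 to 527 with dexamethasone. The summed duct signal went from 3113 to 4346 in controls to 1050 to 2321 with dexamethasone. Krt19 made up most of the control sum, at 2328 to 3176, and read 316 to 1423 with dexamethasone. Of the markers of other cells, 2 of 10 islet and 4 of 7 fibroblast genes were above background on all arrays. So were 1 of 3 endothelial and 0 of 6 immune genes. Too dim to test were 8 islet, 5 fibroblast, 2 endothelial and 6 immune genes. Of those tested, only Pecam1 (endothelial) rose. Its controls read 95.9 to 134, under the filter signal of 148, and its treated arrays (176 to 302) brought it past the filter. A fall in Pecam1 could therefore not have been called. The islet gene Chga, a protein of secretory granules, was bright, at 2701 to 3220 in controls and 2117 to 4578 with dexamethasone, and made up most of the islet sum. Their sums in controls and with dexamethasone were 3593 to 4081 and 2947 to 5395 (islet), 898 to 1064 and 973 to 1152 (fibroblast), 169 to 253 and 259 to 427 (endothelial), and 318 to 387 and 337 to 502 (immune). Gcg, Iapp, Lum, Kdr, Ptprc and Itgam were not above background on any array. The part of these markers in the changes reported here was not tested. On the second principal component (10.0% of variance) dexamethasone 3 stood apart, at 25.3 against -11.6 and -12.6. Without that array, in a fit without pairs, 25 members rose and 1 fell. In the same fit 16.4% of all genes were called higher and 21.9% lower.

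In the entry step the risers were 1 subunit of the receptor, 2 proteins of the particle, 2 channel subunits, 1 peptidase subunit and 2 subunits of the translocon-associated complex. Of 19 genes, 8 rose, 0 fell and 11 did not pass, with a median change of 0.28. At an unadjusted p under 0.05 the count past the threshold was 10, and the share of all genes at that cut was not computed. The share that rose was 42.1%, against 17.0% of all genes.

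Srpr, which encodes the alpha subunit of the receptor that docks the signal recognition particle on the ER, rose. Srpr read 1313, 1646 and 1337 on control arrays 1 to 3 and 2824, 2371 and 2196 on treated arrays 1 to 3. Every treated array lay above every control array, a log2 change of 0.78 ± 0.14 (SE, n = 3 pairs, limma adjusted p = 0.00255). Srprb, the gene of the other receptor subunit, belongs to the wider list described below and did not pass (0.30 ± 0.11, limma adjusted p = 0.0704). Among proteins of the particle itself, Srp72 read 674, 686 and 653 in controls and 1034, 1166 and 1118 with dexamethasone (0.72 ± 0.13, limma adjusted p = 0.00292). Its next probe set gave 0.76 ± 0.15, and the dimmest, at 54.5 to 126, was too dim to test. Srp14, which binds the RNA of the particle together with Srp9, went from 2722, 3015 and 2649 to 4112, 3747 and 3488 (0.44 ± 0.11, limma adjusted p = 0.0138). Srp14 lost its call in 5 of 18 alternatives, among them quantile normalization (0.28) and the fit without replicate 1 (0.36). Its partner Srp9 did not pass, at 1365 to 1426 in controls and 1343 to 1375 with dexamethasone (-0.03 ± 0.12). Srp68, the binding partner of Srp72, did not pass (0.13 ± 0.12, limma adjusted p = 0.441), and its groups overlapped.

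Of the 3 subunits of the Sec61 channel, 2 rose. Sec61a1 encodes the pore itself, and its signal of 3496, 4202 and 3585 in controls became 6462, 5103 and 5629 with dexamethasone (0.61 ± 0.13, limma adjusted p = 0.00617). A second probe set of the gene also rose, by 0.45 ± 0.10. The small subunit gene Sec61b went from 5870.2, 7109 and 5920.4 to 9516, 9466 and 8116 (0.52 ± 0.10, limma adjusted p = 0.00354). For both genes the groups were apart. Sec61g did not pass (0.23 ± 0.10, limma adjusted p = 0.111). It was higher in all 3 pairs, but dexamethasone 3, at 6842, lay below control 2, at 7363, and Sec61g passed without dexamethasone 3 (0.33) and with 75th percentile centring (0.35).

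Sec62 and Sec63 encode membrane partners of the channel that serve part of its cargo and, for Sec63, recruit BiP. Sec62 did not pass (0.02 ± 0.14), with signals of 1085 to 1180.0 in controls and 1017 to 1334 with dexamethasone. Sec63 read 429 to 459 in controls and 550.5 to 708 with dexamethasone, with no overlap, yet missed the threshold (0.42 ± 0.16, limma adjusted p = 0.0644). It passed without the replicate block (limma adjusted p = 0.0455), with quantile normalization, with 75th percentile centring and without dexamethasone replicate 3. The other probe set of Sec63 gave 0.01 ± 0.20, and that of Sec62 0.39 ± 0.17.

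Signal peptidase showed a contrast between its alternative catalytic subunits. Sec11c doubled within a narrow spread: 1129, 1109 and 1115 in controls against 2208, 2506 and 2092 with dexamethasone (1.02 ± 0.12, limma adjusted p = 0.000284). Sec11a, the other catalytic subunit, read 2561, 2524 and 2534 in controls and 2279, 2565 and 2107 with dexamethasone, with overlap (-0.14 ± 0.11, limma adjusted p = 0.385). It passed and was lower with hybridization control scaling (-0.38). The accessory subunits Spcs1 (0.08 ± 0.09), Spcs2 (0.05 ± 0.12) and Spcs3 (0.28 ± 0.11) did not pass. Spcs3 was nearest, at 3511 to 3861 against 4199 to 4792 with no overlap (limma adjusted p = 0.0645), and it passed without the replicate block (limma adjusted p = 0.0445). Thus 1 of 5 peptidase genes rose.

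The translocon-associated protein complex (TRAP), which sits beside the channel and aids some signal peptides, was split. Ssr4, its delta subunit, read 5605, 5818 and 5384 in controls and 8830.2, 10007 and 9825 with dexamethasone (0.77 ± 0.09, limma adjusted p = 0.000322). Ssr3 read 3228, 3660.1 and 3365 against 4305, 3903 and 4742 (0.33 ± 0.12, limma adjusted p = 0.0485). That call stood just inside the threshold and was lost in 11 of 18 alternatives, and the other probe sets of Ssr3 did not pass (0.24 and 0.25). Ssr1 (-0.03 ± 0.13) and Ssr2 (-0.16 ± 0.12) did not pass and overlapped between groups. Ssr2 passed and was lower with quantile normalization (-0.33) and with hybridization control scaling (-0.41).

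**Figure D2:**
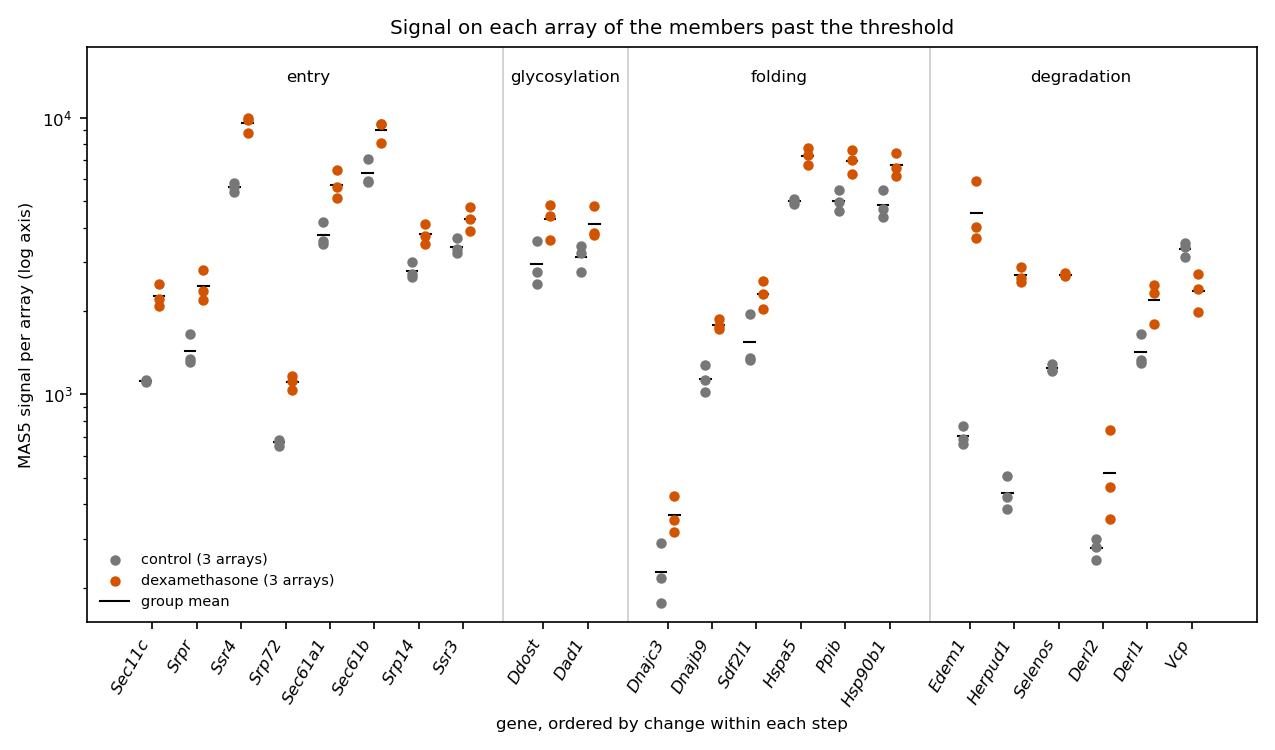
MAS5 signal (log axis) of the 22 members past the threshold on each of the 3 control and 3 dexamethasone arrays, with the group mean as a line. In none of them do the groups overlap, and Vcp is lower with dexamethasone where the others are higher.

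Of 5 subunits of the oligosaccharyltransferase, the glycosylation genes read here, 2 rose, 0 fell and 3 did not pass, with a median of 0.27. The share that rose was 40%, where 17.0% of all genes rose and 21.4% fell. Ddost, needed for the stability of the complex, read 2778, 3586 and 2505 in controls and 4828, 4421 and 3619.8 with dexamethasone (0.54 ± 0.12, limma adjusted p = 0.00814). The highest control and the lowest treated array were almost equal. Dad1, a small subunit whose loss leads to cell death, went from 3241, 3433 and 2759 to 4793, 3754 and 3815 (0.39 ± 0.12, limma adjusted p = 0.0312). Neither call was firm: that of Ddost was lost in 6 of 18 alternatives and that of Dad1 in 9. No member of this step passed without replicate 1 or with hybridization control scaling. The same held without control replicate 1, without control replicate 3 and without dexamethasone replicate 1.

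The other subunits overlapped between groups. Rpn1, a ribophorin that holds the complex near the channel, read 8329, 8926 and 8098 in controls and 9342, 9167 and 8288 with dexamethasone (0.08 ± 0.09, limma adjusted p = 0.526). Rpn2, the other ribophorin, read 5185, 5974 and 5172 against 7858, 6168 and 5822 (0.27 ± 0.12, limma adjusted p = 0.113), where dexamethasone 1 stood above the rest. Ostc gave 0.09 ± 0.15, with dexamethasone 1 again the highest array, at 2727. Over the 5 genes the median change was 0.56 in pair 1, 0.05 in pair 2 and 0.17 in pair 3.

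Of 14 folding genes, 6 rose (42.9%, against 17.0% of all genes), 0 fell (against 21.4%) and 8 did not pass, with a median of 0.25. That median was 0.40 without dexamethasone replicate 3 and -0.00120 with hybridization control scaling. The risers were BiP, 3 of its partners, Grp94 and a prolyl isomerase, while none of the 4 members of glycan-dependent folding passed.

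BiP, the Hsp70 chaperone of the ER (Hspa5), was closely grouped on both sides: 5015, 4892 and 5102 in controls, 7778, 6742 and 7315 with dexamethasone. Its change was 0.54 ± 0.09 (limma adjusted p = 0.00251). Of its partners, Dnajb9, Dnajc3 and Dnajb11 encode J-domain proteins that hand it clients and trigger its ATPase. Dnajb9 (ERdj4) rose from 1281, 1016 and 1124 to 1716, 1766 and 1867 (0.65 ± 0.13, limma adjusted p = 0.00469). Dnajc3 (p58IPK) read 176, 289.9 and 216 in controls and 352, 430.5 and 319 with dexamethasone (0.71 ± 0.18, limma adjusted p = 0.0142). Its call was lost in 6 of 17 alternatives. Dnajb11 (ERdj3), the secreted partner, did not pass: 611, 748 and 658 against 601, 624 and 529 (-0.20 ± 0.14, limma adjusted p = 0.307). It passed and was lower with hybridization control scaling (-0.45).

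Sdf2l1, which binds ERdj3 and keeps BiP clients from clumping, went from 1329.9, 1948 and 1355 to 2575, 2302 and 2034 (0.59 ± 0.15, limma adjusted p = 0.0136). Control 2 lay close to dexamethasone 3, and the call was lost in 5 of 18 alternatives. Hyou1, a nucleotide exchange factor of BiP, did not pass (-0.15 ± 0.12), with 1497 to 1723 in controls and 1313 to 1532 with dexamethasone. Its dimmer probe set gave a value of the other sign that did not pass (0.28 ± 0.19). So among BiP and the 5 partners listed, 4 rose and 2 did not pass.

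Grp94 (Hsp90b1), the Hsp90 of the ER, read 5487, 4388 and 4659 in controls and 6572, 6141 and 7434 with dexamethasone (0.47 ± 0.11, limma adjusted p = 0.00932). Ppib, cyclophilin B, a prolyl isomerase, went from 4604, 5464 and 4962 to 7617, 7044 and 6236 (0.47 ± 0.11, limma adjusted p = 0.00976). Treated arrays exceeded all controls for both. Hsp90b1 lost its call in 3 of 18 alternatives (0.26 with quantile normalization, 0.23 by the hybridization controls, 0.37 without replicate 3). Ppib lost its call in 2 (0.23 by the hybridization controls, 0.35 without replicate 1).

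None of the 4 members among the lectin chaperones and their enzymes passed. Calnexin (Canx) read 3737 to 3913 in controls and 3639 to 3812 with dexamethasone (-0.03 ± 0.10), and its other probe sets gave 0.24 and 0.10 without passing. Calreticulin (Calr) read 4067 to 4307 and 4003 to 4694 (0.07 ± 0.10). Ganab, the alpha subunit of glucosidase II that trims glucose from the sugar chain, gave 0.10 ± 0.14. Prkcsh, the gene of the beta subunit, belongs to the wider list described below and rose (0.39 ± 0.13, limma adjusted p = 0.0469). Mogs, the gene of glucosidase I, is also on that list and did not pass (0.04 ± 0.15). Uggt1, which puts glucose back on chains that are not yet folded, read 571 to 685 in controls and 402 to 634 with dexamethasone. It was lower in all 3 pairs but did not pass (-0.40 ± 0.17, limma adjusted p = 0.0911). It passed and was lower with hybridization control scaling (-0.65) and without dexamethasone replicate 2 (-0.59).

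Manf and Creld2 encode small soluble proteins made in larger amounts when unfolded protein builds up. Manf read 2174, 2914 and 2259.7 against 3165, 3231 and 2678 (0.31 ± 0.12, limma adjusted p = 0.0696). It passed and was higher with 75th percentile centring, without control replicate 2 and without dexamethasone replicate 3. Creld2 had treated signals of 1824, 1730.4 and 1027 against controls of 1346, 1116 and 1488, and its SE was the widest of the folding step (0.18 ± 0.21, limma adjusted p = 0.543). Dexamethasone 3 was the lowest of the 6 arrays for Creld2, and without replicate 3 its change was 0.54 (limma adjusted p = 0.0163).

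Degradation held the largest changes of the system. Of 8 genes, 5 rose (62.5%, against 17.0% of all genes), 1 fell (12.5%, against 21.4%) and 2 did not pass, with a median of 0.73. In pairs 1 to 3 that median was 1.05, 0.55 and 0.48. The 5 risers include Derl1, whose call depended on the choice of probe set. With the mean of all probe sets of a gene, 4 rose.

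Edem1, a mannosidase-like protein that marks misfolded glycoproteins for disposal, read 689, 771 and 662 in controls and 3679, 5914 and 4012 with dexamethasone. This was a 6.28-fold rise (2.65 ± 0.13, limma adjusted p = 2.40e-06) and the largest of the 46. Herpud1, a membrane protein that helps assemble the Hrd1 complex, read 385, 506 and 426 against 2637, 2887 and 2543, a 6.16-fold rise (2.62 ± 0.13). Among all genes tested they ranked 55 and 57 by change, counted from the largest rise. In all 18 alternatives both stayed past the threshold, with changes of 2.41 to 2.79 for Edem1 and 2.38 to 2.75 for Herpud1.

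Selenos, a selenoprotein that links Derlins to the p97 ATPase, was closely grouped on both sides: 1210.0, 1291 and 1221 against 2742, 2705 and 2677 (1.13 ± 0.11, limma adjusted p = 0.000109). The Derlins are membrane proteins through which clients leave the ER. Derl2 read 252, 300.2 and 281 in controls and 745, 461 and 355 with dexamethasone (0.84 ± 0.23, limma adjusted p = 0.0218). The treated arrays of Derl2 differed more than 2-fold among themselves, and its change was 0.48 without replicate 1 (limma adjusted p = 0.131). Derl2 lost its call in 7 of 18 alternatives.

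Derl1 depended on the probe set. Its brightest probe set read 1301, 1656 and 1326 in controls and 2475, 2322 and 1802 with dexamethasone (0.62 ± 0.13, limma adjusted p = 0.00728). In controls the mean of this probe set (1427) lay below that of another Derl1 probe set (1580). It ranked as brightest through its mean with dexamethasone (2199 against 1650). The choice of probe set thus depended on the change under test, and the count of Derl1 as a riser rests on that choice. The other probe sets of Derl1 did not pass, at 0.02 ± 0.12 and 0.06 ± 0.13, with signals of 1195 to 1727 in controls and 1264 to 1766 with dexamethasone. Averaged over all 3, the change was 0.24 and did not pass (limma adjusted p = 0.143). Which of these readings reflects the Derl1 messenger was not tested.

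**Figure D3:**
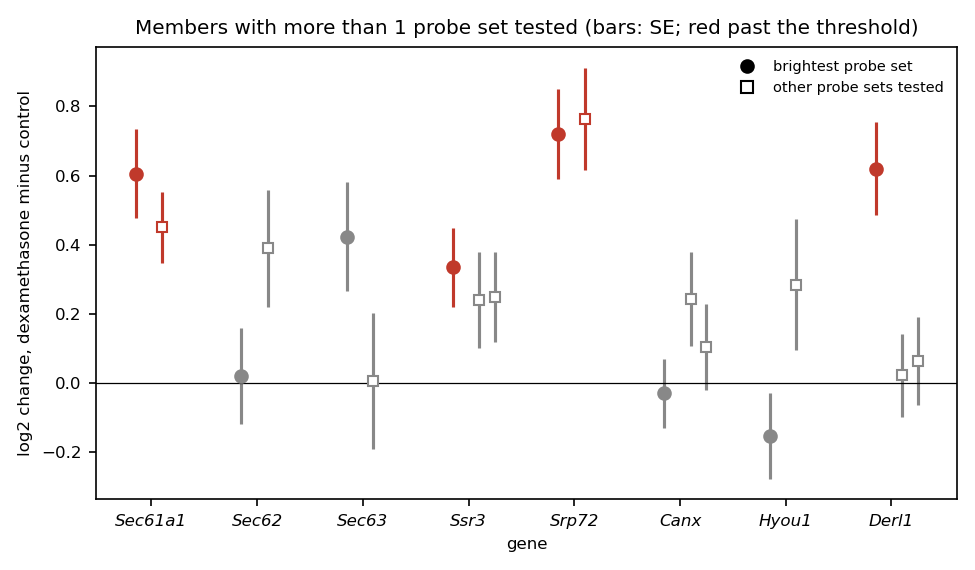
Log2 change (dexamethasone minus control) with SE for the 8 members with more than 1 probe set tested; filled points are the brightest probe set, open squares the others. Both tested probe sets of Sec61a1 and Srp72 rose, whereas Derl1 rose in its brightest probe set (0.62) and not in the others (0.02 and 0.06). In controls alone that probe set of Derl1 was not the brightest.

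Neither core gene of the Hrd1 ligase passed. Syvn1, the ubiquitin ligase Hrd1 itself, read 626 to 747 in controls and 822 to 899 with dexamethasone, without overlap (0.30 ± 0.14, limma adjusted p = 0.13). Sel1l, the adaptor that brings clients to Hrd1, read 2601, 2473 and 2368 against 3049.7, 3204 and 2218 (0.17 ± 0.12, limma adjusted p = 0.322). Dexamethasone 3 was the lowest array for Sel1l, and without it the gene passed (0.33, limma adjusted p = 0.0348). Syvn1 passed with 75th percentile centring (0.42).

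Vcp, the p97 ATPase that pulls clients out of the membrane and works in many other processes, was the only member that fell. It read 3510.2, 3138 and 3415 in controls and 2710.5, 1991 and 2402 with dexamethasone (-0.51 ± 0.11, limma adjusted p = 0.0072). All treated arrays were below all controls, a 1.43-fold decrease. The call was lost without control replicate 1 (-0.48, limma adjusted p = 0.0511). Herpud1, Edem1, Selenos and Vcp gave both ends of the range within a single step.

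Over all 46 members the groups did not overlap in 26, of which 25 were higher with dexamethasone and 1 lower. Among all genes tested, the groups did not overlap in 51.0%, with 22.9% higher and 28.1% lower. All 3 pairs were higher in 29 members and lower in 4, and the share of all genes with such agreement was not computed. Without replicate 1, 13 members rose in place of 21, and 14 rose without control replicate 3. In the same fits 817 and 847 of all 7051 genes were called higher, against 1196 with all arrays.

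A wider list of 171 further ER genes, written from general knowledge for the same steps and for stress sensing, had 144 on the array and 135 bright enough to test. Of these, 39 rose (28.9%), 16 fell (11.9%) and 80 did not pass, with a median of 0.22. Of all genes tested, 17.0% rose and 21.4% fell. Among the risers, Man1a1 (142, 181 and 90.2) and Alg1 (177, 133 and 133) lay around the filter signal of 148 in controls. Their treated signals (207 to 431 and 239 to 278) brought them past the filter. A fall in these 2 genes would have left them untested. Over the 4 steps that hold measured members, 28 of 116 rose (24.1%) and 15 fell (12.9%), with a median of 0.17. The difference between these genes and the members was not tested. The 2 largest changes past the threshold in each step are named.

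In entry, 5 of 25 rose and 5 fell (20% each), near the 17.0% and 21.4% of all genes, with a median of 0.00431. Emc4, a subunit of the ER membrane complex that inserts membrane proteins, rose from 963 ± 100.4 to 1877 ± 106 (SD, n = 3; 0.97 ± 0.13, limma adjusted p = 0.000625). Get1, a receptor for tail-anchored proteins, fell from 533 ± 49.4 to 283 ± 5.82 (-0.91 ± 0.16).

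In glycosylation, 4 of 28 rose and 4 fell (14.3% each), below the 17.0% and 21.4% of all genes. Tusc3, an oxidoreductase subunit of the oligosaccharyltransferase, fell from 1157 ± 54.9 to 338 ± 77.8 (-1.80 ± 0.17, limma adjusted p = 8.31e-05), a larger absolute change than in any of the 5 subunits above. Dpm1, which makes dolichol phosphate mannose for the sugar donor, rose from 812 ± 75.9 to 1452 ± 52.3 (0.84 ± 0.13).

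In folding, 10 of 32 rose (31.25%, against 17.0% of all genes) and 4 fell (12.5%, against 21.4%). Mcfd2, which helps carry cargo out of the ER, rose from 1427 ± 281 to 3704 ± 607 (1.38 ± 0.15), and the calcium-binding protein gene Calu fell from 778 ± 74.3 to 316 ± 13.6 (-1.30 ± 0.15). In degradation, 9 of 31 rose (29.0%, against 17.0% of all genes) and 2 fell (6.45%, against 21.4%). The ubiquitin ligase gene Ube4a rose from 579 ± 47.6 to 1355 ± 145 (1.23 ± 0.13) and Os9, a lectin that delivers glycoproteins to Hrd1, from 655 ± 93.7 to 1504 ± 186 (limma adjusted p = 0.000602). Probe sets of Tusc3, Mcfd2, Calu and Trib3 are of kinds that can read more than 1 transcript.

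Among 19 genes of stress sensing and its outputs, 11 rose (57.9%, against 17.0% of all genes) and 1 fell (5.26%, against 21.4%). The other 7 did not pass, and the median was 0.49. The gene of the sensor Perk (Eif2ak3, 0.18 ± 0.13) and Atf6b (0.23 ± 0.18) were among those that did not pass. Bhlha15, 1 of the risers, is also counted among the acinar markers above. Chac1, a glutathione-degrading enzyme induced through Atf4, rose from 376 ± 45.1 to 976 ± 52 (1.38 ± 0.15, limma adjusted p = 0.000148). Trib3, a pseudokinase of the same branch, rose from 178 ± 6.35 to 346 ± 22.2 (0.95 ± 0.18).

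**Figure D4:**
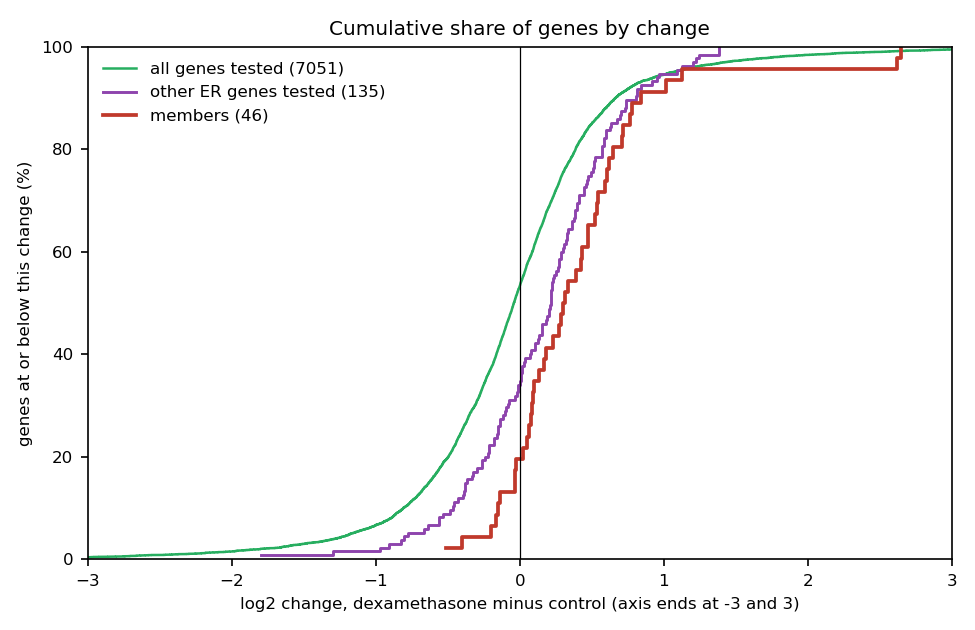
Percentage of genes at or below each log2 change for all 7051 genes tested, the 135 other ER genes and the 46 members. The members' curve lies to the right of that of all genes through its middle, with medians of 0.31 and -0.04, and the median of the other ER genes, sensors included, lies between them at 0.22.

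**Figure D5:**
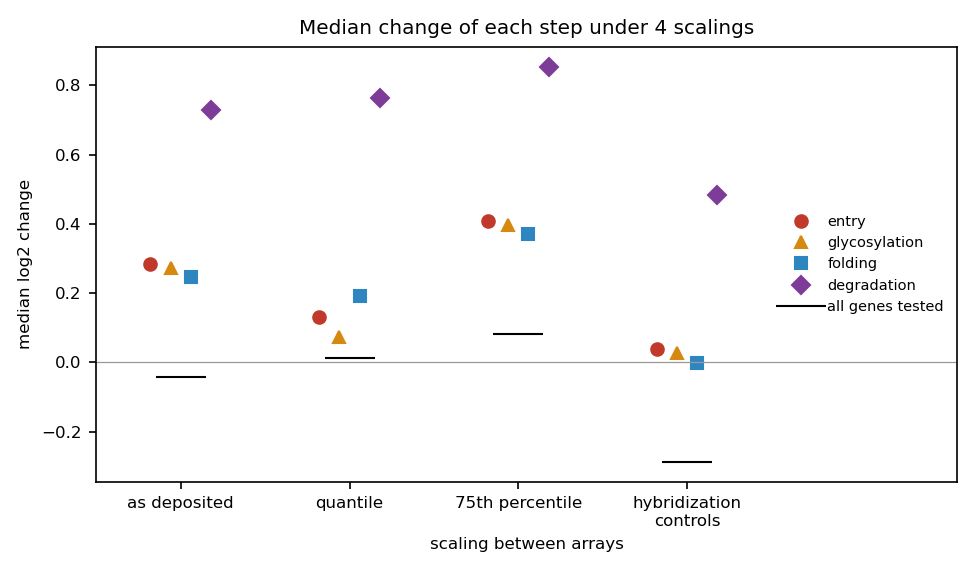
Median log2 change of each step under 4 scalings between arrays, with the median of all genes tested as a bar. Degradation has the highest median in each, from 0.48 to 0.85, and folding is at -0.00120 with hybridization control scaling while all genes are at -0.29.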

How the data were processed

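The authors deposited a linear intensity (MAS5 signal) for each probe set on each array. The submitters' processing notes name GCOS and MAS5, and their versions and settings are not given in the sources used here. The values themselves showed a trimmed mean of each array of about 500.1, and 68.3% to 79.5% of probe sets lay above the array's background level, 51.7 to 115.9 (the highest signal among 27 Bacillus control probe sets). Of 15866 probe sets analysed, 12783 had 1 symbol, from GEO's platform annotation updated through the GRCr8 gene table (12748 matched by gene identifier); 312 had several and 2771 none. Signals were taken to log2, with 4 zeros set to 0.1. Probe sets reaching the 40th percentile of mean log2 signal (a signal of 148) were tested: 9520 probe sets, 7051 genes, all 46 members among them. The fit used limma 3.58.1 (R 4.3.3), with terms for treatment and for replicate number as a block and eBayes with intensity trend, with Benjamini-Hochberg adjustment and a threshold of 0.05, and the script was tested on simulated data. The series' design text calls the cultures pairs, and that equal numbers mark a pair is an assumption. Same-numbered arrays' deviations from their group means correlated at -0.10, 0.11 and 0.21 for numbers 1 to 3. Unlike-numbered arrays ran from -0.25 (control 2, dexamethasone 3) to 0.18 (control 2, dexamethasone 1), so these values do not settle the pairing. The 3 arrays per group limit the precision. Members and lists were chosen with earlier results of these data known. Every member is accounted for: those past the threshold and the 2 brightest of each step are given on every array, with the 2 largest changes past the threshold per step of the wider list. Promoter sequences are from RefSeq (GRCr8). Alternatives covered scaling, filter, pseudocount, intensity trend, block, probe set choice and left-out arrays.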

Additional observations from a re-analysis of the deposited data

How the results depend on the processing

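Of 22 members past the threshold, 10 kept their call in all 18 alternatives and the other 12 lost it in at least 1. Of the 24 that did not pass, 12 passed in at least 1. As deposited, 21 members rose and 1 fell. Quantile normalization gave 2 fallers and a median of 0.19 for all members (0.13 for entry). With 75th percentile centring the medians were 0.43 (all), 0.41 (entry) and 0.37 (folding). Scaling to the hybridization controls gave 10 risers, 5 fallers and medians of 0.0593 (all), 0.0376 (entry) and -0.00120 (folding), the last being a change of sign. Leaving out 1 replicate pair or 1 array gave 13 to 25 risers, 0 to 2 fallers, and medians of 0.27 to 0.38 (all), 0.25 to 0.33 (entry), 0.11 to 0.39 (glycosylation), 0.16 to 0.40 (folding) and 0.47 to 0.92 (degradation). In those fits 11.6% to 16.4% of all genes were called higher and 14.9% to 21.9% lower. Without the replicate block 23 rose and 1 fell, with Sec63 and Spcs3 added and no call lost, and the medians were as in the blocked fit. No filter and no intensity trend each gave 18 risers, with 10.2% and 14.6% of all genes called higher. The mean of all probe sets of a gene gave 19 risers, with the calls of Ssr3 and Derl1 lost. Fits with an array left out use no pairs. Dnajc3 was below the 60th percentile filter and has no value there. Levels below about 116 on an array cannot be told from background, which touched no member.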
